A study of Mus musculus with 6 samples.

Results

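The V(D)J recombination and end-joining genes were 10 genes chosen by name. The lymphoid-specific factors among them were Rag1, Rag2 and Dntt, and the ubiquitous factors were Prkdc, Xrcc4, Xrcc5, Xrcc6, Lig4, Dclre1c and Nhej1. Every probe set that the platform annotation assigns to 1 symbol among them was taken, which gave 14 of 45037 probe sets and 9 of 18193 genes. Dclre1c, which encodes the Artemis nuclease, had no such probe set and was not analysed here. Mouse Genome 430 2.0 arrays (Affymetrix) measured RNA of cells sorted as Lin-CD44+CD25-kit+, the early thymic progenitors, from which the T-lineage cells of the thymus descend. The 3 Tcf1-/- arrays and the 3 Tcf1-/+ arrays came from C57Bl/6 mice of 10 weeks of age, and are titled as biological replicates. Tcf1 is a DNA-binding protein of the TCF/LEF family that acts early in T-cell development. A second label field calls the Tcf1-/+ animals wild type, so the genotype of the second group is named here as in the titles. The sources used here do not give the number of animals behind an array or the design of the Tcf1 allele. No probe set carried the symbol of Tcf7 alone, the gene of Tcf1, and it was not analysed here, so the genotype labels were not checked on the targeted gene.

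V(D)J recombination assembles antigen receptor genes by cutting and rejoining gene segments. The Rag1 and Rag2 proteins form the recombinase that cuts at recombination signal sequences, and they are made mainly in developing lymphocytes. The broken ends are then handled by non-homologous end joining, a repair route present in nearly all cells, in which Ku binds the ends, the DNA-dependent protein kinase and Artemis open the hairpins, and a ligase complex seals the break. Terminal deoxynucleotidyl transferase, encoded by Dntt, adds nucleotides without a template at the junctions, and in the mouse it is expressed in early lymphoid progenitors before the receptor genes are rearranged.

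The promoters of the lymphoid-specific genes are shown because these 3 genes carried both the largest and one of the smallest differences between genotypes. Sequences are from RefSeq (build GRCm38.p6), cover 250 bases before to 50 bases after each annotated gene start and run 5′ to 3′ on the gene's strand. Capitals mark the E-box letters CANNTG, the kind of site that E proteins bind, and in Rag1 also the Runx letters TGTGGT. The Rag1 window lies on the minus strand of chromosome 2 at chr2:101649483-101649782, the Rag2 window on the plus strand at chr2:101624462-101624761, and the Dntt window on the plus strand of chromosome 19 at chr19:41029025-41029324.
Rag1: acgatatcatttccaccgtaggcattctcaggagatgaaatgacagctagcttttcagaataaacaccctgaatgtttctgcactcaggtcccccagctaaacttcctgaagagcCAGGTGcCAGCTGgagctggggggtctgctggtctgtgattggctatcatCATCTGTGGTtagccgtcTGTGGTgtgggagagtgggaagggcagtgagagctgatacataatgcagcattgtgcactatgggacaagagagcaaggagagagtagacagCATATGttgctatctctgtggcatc
Rag2: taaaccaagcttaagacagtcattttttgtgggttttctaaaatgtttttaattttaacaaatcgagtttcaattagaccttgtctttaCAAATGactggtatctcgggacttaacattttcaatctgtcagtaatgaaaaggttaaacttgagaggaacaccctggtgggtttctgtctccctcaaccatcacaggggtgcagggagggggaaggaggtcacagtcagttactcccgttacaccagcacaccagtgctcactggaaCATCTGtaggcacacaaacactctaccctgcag
Dntt: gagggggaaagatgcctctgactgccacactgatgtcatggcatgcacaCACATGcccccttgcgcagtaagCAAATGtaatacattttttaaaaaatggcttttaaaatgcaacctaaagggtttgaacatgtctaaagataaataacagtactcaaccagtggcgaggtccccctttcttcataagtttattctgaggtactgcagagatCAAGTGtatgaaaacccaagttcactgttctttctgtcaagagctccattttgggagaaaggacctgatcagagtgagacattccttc
The Rag1 and Rag2 genes lie tail to tail, with 5723 bases between them. The Rag1 window held E-box letters at positions -135, -128, -85 and 26 from the start, where the first base of the gene is 1, and Runx letters at -81 and -67. The E box at -85 overlaps the first Runx match. Rag2 held E-box letters at -161 and 18 and Dntt at -201, -178 and -38, and neither window held the Runx letters on either strand. The TCF/LEF letters CTTTGA, on either strand, were in none of the 3 windows. They were in 1 of the 10 windows of the member genes, that of Dclre1c. Windows were found for 9 of the 10 genes, not for Prkdc, and Lig4 had more than 1. Over all 32851 windows of the table, 16% held the TCF/LEF letters, 72.3% the E-box letters and 16.8% the Runx letters. These matches describe the letters of the windows only.

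Dntt had lower values on every Tcf1-/- array than on every Tcf1-/+ array, on each of its 3 probe sets. Rag1 had a lower mean in Tcf1-/- with arrays that overlapped, and Rag2 and the brightest probe sets of the ubiquitous end-joining genes had intervals of the difference that included 0. A dimmer probe set of Xrcc6 was lower on every Tcf1-/- array. No probe set of these genes passed the threshold of 0.05 on limma's p adjusted over all probe sets (0 of 14), where 0.0% of all probe sets were called. At an unadjusted p under 0.05, 5 of the 14 probe sets were lower in Tcf1-/-, against a background of 3.51% of all probe sets, and 0 were higher, against 2.97%. The 5 were the 3 of Dntt, that of Rag1 and 1 of Xrcc6. By gene, each read on its probe set of highest mean, 2 of 9 were lower at that level, against 3.4% of all genes. Tcf1-/- replicate 2 stood apart from the other arrays. Its correlations with them over all probe sets were 0.870 to 0.893 (Pearson's r), while each of the other 5 arrays reached at least 0.928 with some array. Without it the difference was -1.62 for Dntt, -1.62 for Rag1, -0.30 for Xrcc6 and 0.12 for Prkdc. In bulk RNA of sorted cells, fewer cells that express a gene and less RNA per cell cannot be told apart.

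**Figure D1:**
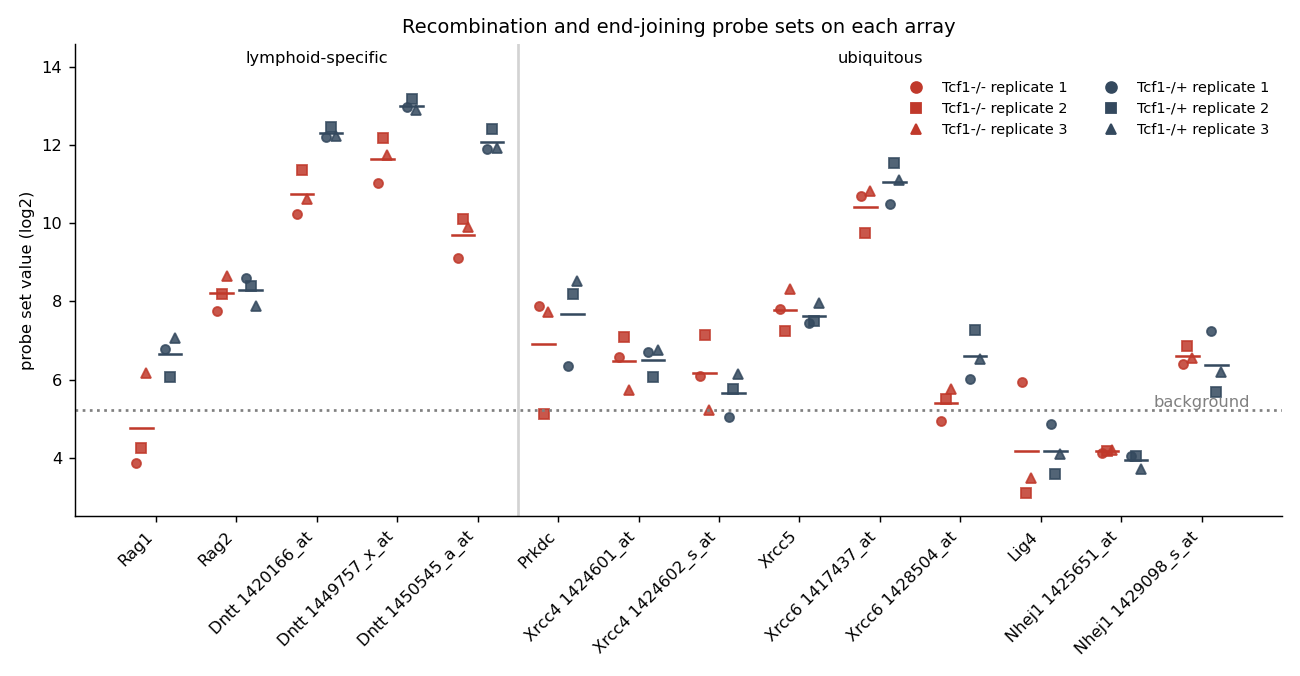
Values of the 14 probe sets (log2, vertical axis) on each array, with Tcf1-/- arrays in red left of Tcf1-/+ arrays in dark blue, marker shape giving the replicate, horizontal bars the means of 3 arrays and the dotted line the background level of 5.21. The 3 Dntt probe sets separate the genotypes, whereas the points of Rag2, Prkdc, Xrcc4 and Xrcc5 are interleaved.

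Dntt was read by 3 probe sets. On 1449757_x_at, the brightest, it was at 11.05, 12.19 and 11.75 on the Tcf1-/- arrays, against 12.97, 13.19 and 12.90 on the Tcf1-/+ arrays (log2 values). The highest Tcf1-/- array lay 0.72 log2 units under the lowest Tcf1-/+ array. The means were 11.66 ± 0.58 in Tcf1-/- and 13.02 ± 0.15 in Tcf1-/+ (SD, n = 3 each), a difference of -1.36 (95% confidence interval -2.16 to -0.56), or 2.57-fold lower. On 1420166_at the values were 10.24, 11.37 and 10.62 in Tcf1-/- and 12.23, 12.47 and 12.24 in Tcf1-/+, again without overlap. The difference there was -1.57, with an interval of -2.36 to -0.77. On 1450545_a_at the arrays stood furthest apart, at 9.12, 10.11 and 9.91 in Tcf1-/- and 11.91, 12.43 and 11.92 in Tcf1-/+, with a gap of 1.80 between the groups. This difference was -2.38, with an interval of -3.18 to -1.57, or 5.19-fold lower. Its unadjusted p was 0.00035 and its adjusted p 0.395 from limma, the lowest adjusted p of the 14 probe sets.

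All 3 Dntt probe sets ordered the Tcf1-/- arrays alike, with replicate 1 lowest and replicate 2 highest, and on each of them Tcf1-/+ replicate 2 was the highest array. The probe sets read 1 gene on the same arrays and are not separate evidence of the difference. Over all probe sets, every Tcf1-/- array lay below every Tcf1-/+ array for 5.27%, and among the 14 this held for 4, the 3 of Dntt and 1 of Xrcc6. Signal of Y-linked genes was low on Tcf1-/- replicate 1 and Tcf1-/+ replicates 1 and 3 (means of 5.0, 4.07 and 4.01) and high on Tcf1-/- replicates 2 and 3 and Tcf1-/+ replicate 2 (8.49, 8.42 and 9.39). Within either kind of array the Tcf1-/- values of Dntt lay below the Tcf1-/+ values on each probe set. This follows from the separation over all 6 arrays and is no test of the Y-linked signal. When the Y-linked level was a covariate, the difference on the brightest probe set was -1.53, with an adjusted p of 0.616 from limma.

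Rag1, the catalytic subunit of the recombinase, was read by a single probe set. Its values were 3.86, 4.23 and 6.18 on the Tcf1-/- arrays, against 6.79, 6.08 and 7.06 on the Tcf1-/+ arrays. Tcf1-/- replicate 3 lay among the Tcf1-/+ arrays, above Tcf1-/+ replicate 2, while Tcf1-/- replicates 1 and 2 lay under the background level of 5.21, the 95th percentile of 27 unspiked bacterial control probe sets. The means were 4.76 ± 1.25 in Tcf1-/- and 6.64 ± 0.51 in Tcf1-/+ (SD, n = 3 each). The difference was -1.88, with an interval of -3.49 to -0.28, an unadjusted p of 0.0281 and an adjusted p of 0.718 from limma. Because the Tcf1-/- mean lay under background, the size of this difference was not well measured, and with values under background set to that level it was -1.11. On the arrays of high Y-linked signal Tcf1-/- replicate 3 lay above and Tcf1-/- replicate 2 below Tcf1-/+ replicate 2, and on those of low signal Tcf1-/- replicate 1 lay below both Tcf1-/+ arrays.

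Rag2, the partner of Rag1 in the recombinase, did not show the pattern of Rag1. It was at 7.76, 8.20 and 8.66 on the Tcf1-/- arrays, against 8.61, 8.39 and 7.88 on the Tcf1-/+ arrays. The groups overlapped throughout, and all 6 values were above background. The difference was -0.09, with an interval of -0.88 to 0.70 and an adjusted p of 0.981 from limma. Its sign turned when Tcf1-/- replicate 1 was left out (0.14) or Tcf1-/+ replicate 1 (0.07).

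Each array can also be read as the centred level of Rag1 minus that of Rag2, where a gene's values are centred on its mean over the 6 arrays. This was -1.35, -1.42 and 0.07 on the Tcf1-/- arrays, against 0.73, 0.24 and 1.73 on the Tcf1-/+ arrays. The groups did not overlap on it, although Tcf1-/- replicate 3 lay close to Tcf1-/+ replicate 2. The first 2 of these values rest on Rag1 values under background. With values under background set to that level the reading was -0.39, -0.83 and -0.32 in Tcf1-/-, against 0.34, -0.15 and 1.35 in Tcf1-/+, an alternative chosen after seeing the data. The same reading of Dntt minus Rag2 was -0.81, -0.10 and -1.0 in Tcf1-/-, against 0.27, 0.71 and 0.94 in Tcf1-/+, and did not overlap either. Dntt also separated the genotypes by itself. A pair of ubiquitous genes, Xrcc6 minus Xrcc5, also did not overlap, at -0.14, -0.52 and -0.52 in Tcf1-/- and 0.015, 1.04 and 0.13 in Tcf1-/+. Dntt minus Rag1 overlapped, at 0.54, 1.31 and -1.07 in Tcf1-/- and -0.46, 0.47 and -0.80 in Tcf1-/+. These readings describe the arrays, and an exact permutation test over 3 and 3 arrays reaches no p smaller than 0.1. How often other pairs of genes separate the genotypes was not counted.

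**Figure D2:**
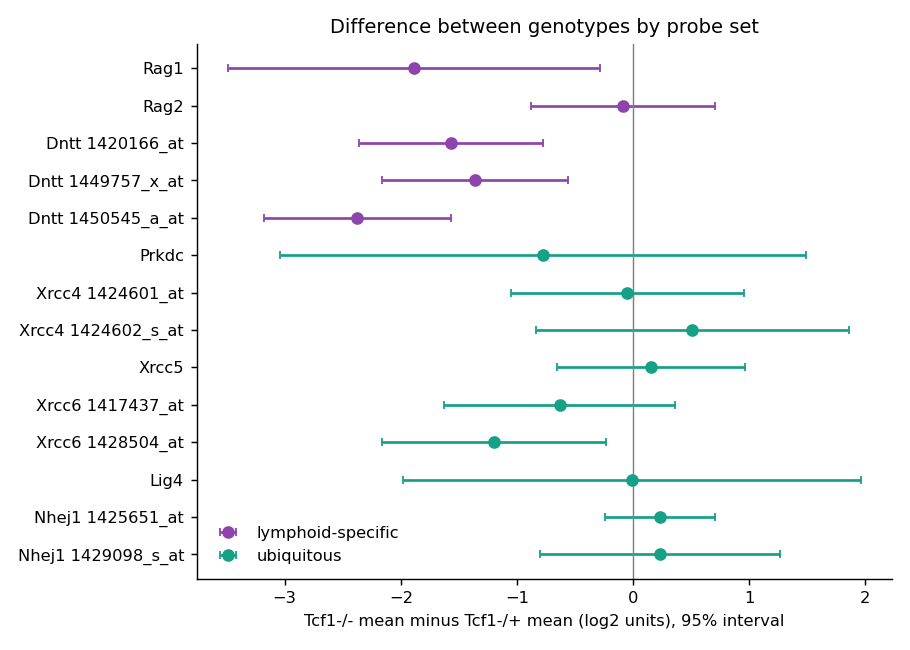
Tcf1-/- mean minus Tcf1-/+ mean (log2 units) of each probe set with limma's 95% confidence interval, lymphoid-specific genes in purple and ubiquitous genes in green. The intervals of Rag1, the 3 Dntt probe sets and 1428504_at of Xrcc6 lie below 0, and those of the other 9 probe sets include 0.

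The Ku subunits bind broken DNA ends as a heterodimer. Xrcc6, which encodes Ku70, was at 10.70, 9.76 and 10.82 on the Tcf1-/- arrays, against 10.50, 11.55 and 11.12 on the Tcf1-/+ arrays, on its brightest probe set. Tcf1-/- replicate 2 was the lowest, and the other arrays of the genotypes overlapped. The difference was -0.63 (interval -1.63 to 0.36). Its dimmer probe set, 1428504_at, was at 4.94, 5.50 and 5.77 in Tcf1-/- and 6.01, 7.26 and 6.54 in Tcf1-/+. It did not overlap between genotypes, with a gap of 0.24 and a difference of -1.20 (interval -2.16 to -0.23, limma adjusted p 0.695), and replicate 1 of Tcf1-/- was under background on it. Over the mean of both probe sets Xrcc6 differed by -0.92. Xrcc5, which encodes Ku80, was at 7.81, 7.25 and 8.32 in Tcf1-/- and 7.46, 7.49 and 7.96 in Tcf1-/+. Its groups overlapped, with a difference of 0.15 (interval -0.66 to 0.97).

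Prkdc encodes the catalytic subunit of the DNA-dependent protein kinase, which Ku recruits to ends. It was at 7.88, 5.12 and 7.72 on the Tcf1-/- arrays, against 6.35, 8.19 and 8.51 on the Tcf1-/+ arrays. One array of each genotype, replicate 2 of Tcf1-/- and replicate 1 of Tcf1-/+, was well below the other arrays of its group. Its SDs of 1.55 in Tcf1-/- and 1.17 in Tcf1-/+ compare with medians of 0.39 and 0.33 over all genes, and the difference was -0.78 with an interval of -3.04 to 1.49. Without Tcf1-/- replicate 2 the sign turned, to 0.12. The same 2 arrays had the lowest values of the control probe set for the middle of the Tfrc transcript, 6.57 on Tcf1-/- replicate 2 and 7.78 on Tcf1-/+ replicate 1, while the other 4 lay between 8.26 and 9.33. They also had the widest gap between the 3′ and 5′ control probe sets of Gapdh, 2.78 and 2.89 log2 units, with 1.74 to 2.37 on the other 4. The part of these array differences in the values of Prkdc was not tested.

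In the ligation complex the intervals of all differences included 0. Xrcc4, the scaffold of the ligase, was at 6.57, 7.10 and 5.72 on the Tcf1-/- arrays, against 6.71, 6.07 and 6.76 on the Tcf1-/+ arrays, with a difference of -0.05 (interval -1.05 to 0.95). Its other probe set differed by 0.51 (interval -0.84 to 1.86), with overlap on both. Nhej1, which encodes XLF, a relative of Xrcc4 that stimulates ligation, was at 6.39, 6.87 and 6.56 in Tcf1-/- and 7.24, 5.69 and 6.20 in Tcf1-/+. Its difference was 0.23 (interval -0.80 to 1.26), and the 3 Tcf1-/- arrays lay within the range of the Tcf1-/+ arrays. Its other probe set, 1425651_at, was under background on all 6 arrays, with every Tcf1-/- array above every Tcf1-/+ array by a gap of 0.08. Over all probe sets 6.51% were separated in that direction. Lig4, the ligase itself, was at 5.94, 3.10 and 3.47 in Tcf1-/- and 4.86, 3.57 and 4.10 in Tcf1-/+. Both of its means were under background, so these values do not measure a difference between genotypes, and Tcf1-/- replicate 1 was its only array above that level.

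Taking the parts as wholes, each gene was centred on its mean over the 6 arrays and averaged. The lymphoid-specific level was -1.21, -0.56 and 0.10 on the Tcf1-/- arrays, against 0.70, 0.45 and 0.52 on the Tcf1-/+ arrays, without overlap. Of its 3 genes only Dntt separated the genotypes by itself, and Rag1 and Rag2 did not. How often averages over other genes separate them was not counted. The ubiquitous level, over 6 genes, was 0.40, -0.62 and -0.05 in Tcf1-/-, against 0.04, -0.06 and 0.29 in Tcf1-/+, with overlap. Lig4, under background in both genotypes, is among these 6, and over the other 5 genes the level was 0.12, -0.53 and 0.08 in Tcf1-/- and -0.10, 0.05 and 0.36 in Tcf1-/+. The median difference was -1.36 over the 3 lymphoid-specific genes and -0.03 over the 6 ubiquitous ones (-0.05 without Lig4), beside 0.04 over all 18193 genes. Lymphoid-specific minus ubiquitous was -1.60, 0.06 and 0.15 on the Tcf1-/- arrays, against 0.66, 0.51 and 0.23 on the Tcf1-/+ arrays. The groups were separated on it by little, and Tcf1-/- replicate 1 stood far below the other 5 arrays. The difference between genotypes was -0.93 with all arrays and -0.36 without Tcf1-/- replicate 1, and it was -0.90 when Lig4 was not averaged. The lymphoid-specific level includes the Rag1 values under background. No p is given for these averages, since the genes were chosen with results of these arrays known.

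**Figure D3:**
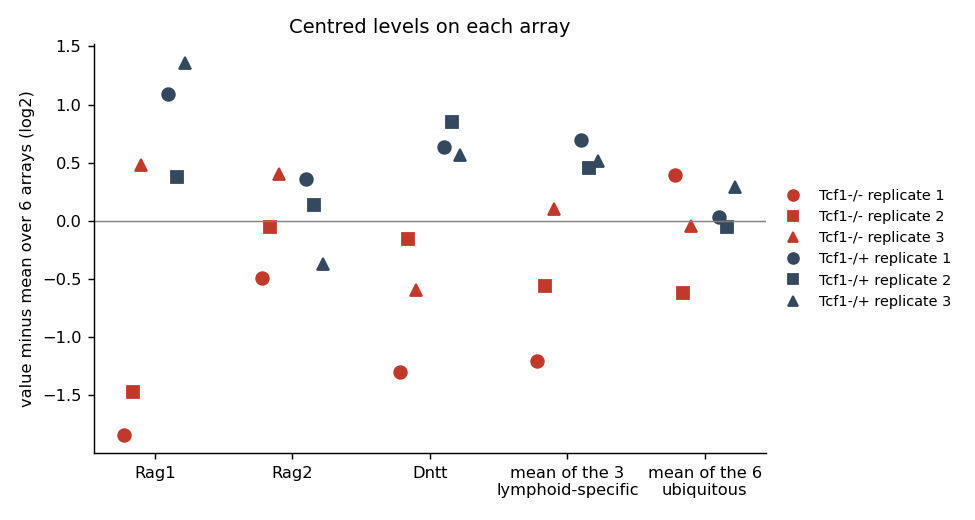
Values of Rag1, Rag2, Dntt, the mean of the 3 lymphoid-specific genes and the mean of the 6 ubiquitous genes on each array (log2, minus the mean over 6 arrays), with Tcf1-/- arrays in red left of Tcf1-/+ arrays in dark blue. The lymphoid-specific means of the Tcf1-/- arrays, at most 0.10, lie below those of the Tcf1-/+ arrays, at least 0.45, and the ubiquitous means overlap.

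Other genes of the pathway were read from lists. Of the RAG cofactors and other end-joining factors, 6 of 8 were measured, and 0 passed the adjusted threshold. At an unadjusted p under 0.05, 2 were higher in Tcf1-/- and 0 were lower, against 3.38% and 3.4% of all genes, and the median difference was -0.07. Aplf, a scaffold that binds Ku and XRCC4, was at 8.43, 9.01 and 8.03 in Tcf1-/- and 7.31, 6.93 and 6.88 in Tcf1-/+, a difference of 1.45 (SE 0.31), and its other probe set was under background in both genotypes. Paxx, a further relative of Xrcc4 that binds Ku, was at 8.45, 8.38 and 8.11 in Tcf1-/- and 7.54, 8.01 and 7.56 in Tcf1-/+, a difference of 0.61 (SE 0.23), with 0.64 on its other probe set. Both genes were higher on every Tcf1-/- array than on every Tcf1-/+ array on their brighter probe sets, which held for 7.22% of all genes. For Aptx, which removes abortive ligation products, the difference was -0.63 (SE 0.38). Its Tcf1-/- mean of 4.80 was under background, so the size of this difference was not well measured.

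Genes that sense and signal breaks had no member at an unadjusted p under 0.05 in either direction on their brightest probe sets (0 of 11). Over all genes, 3.38% were higher and 3.4% lower in Tcf1-/- at that level. Their median difference was -0.12. The 3 of smallest p were the checkpoint kinase gene Chek2 at -0.99 (SE 0.87), the adaptor gene Mdc1 at -0.64 (SE 0.61) and Trp53bp1, which protects ends from resection, at -0.17 (SE 0.21). Mre11a differed by -0.26 on its brightest probe set. On its dimmer probe set, 1441990_at, it was lower in Tcf1-/- at -1.30 with overlapping arrays (unadjusted p 0.0338 from limma). Mre11a is named after its values were seen. Of the alternative end-joining genes, 0 of 5 reached an unadjusted p under 0.05 on their brightest probe sets, and the median was -0.65. Parp1, a break sensor of that route, was at 10.40, 7.78 and 9.12 in Tcf1-/- and 10.50, 10.18 and 11.03 in Tcf1-/+, and differed by -1.47 (SE 0.67). Polq, the polymerase that anneals short homologies, differed by 0.60 (SE 0.36) and the ligase gene Lig1 by -0.85 (SE 0.58). Of the other probe sets of Parp1, 1422503_s_at was lower on every Tcf1-/- array at -1.20 (unadjusted p 0.043 from limma), and the others were at -0.38 and -0.86. Over all probe sets, 5.27% were lower on every Tcf1-/- array. Lig3, a further ligase gene, differed by 0.18 on its brightest probe set, while 1431715_a_at was lower on every Tcf1-/- array at -1.56 (unadjusted p 0.0152 from limma). Its remaining probe sets were at -0.88, -0.38 and -0.52 with overlapping arrays, and both means behind -0.52 were under background. Lig3 is named after its values were seen. The list means of both groups of genes were lowest on Tcf1-/- replicate 2, at -0.57 for the sensing and -0.89 for the alternative end-joining genes after centring.

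Homologous recombination, which copies from a sister chromatid, had higher means in Tcf1-/- for 8 of 11 genes and lower for 3. None had an unadjusted p under 0.05 (0 of 11), against 3.38% of all genes higher and 3.4% lower, and the median was 0.57. Rad51d differed by 1.5 (SE 0.73), Rad54l by 0.72 (SE 0.36) and Brca1 by 0.64 (SE 0.52), and arrays of the genotypes overlapped for each. The other probe sets of Rad51d differed by -0.16, 0.37 and 0.11, those of Rad54l by -0.15, -0.79 and 0.90, and those of Brca1 by 0.10, -0.60 and -0.09, where the Tcf1-/- mean behind -0.60 was under background.

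Among 15 transcription factors listed as activators of the Rag genes and Dntt, 0 passed the adjusted threshold, 4 were lower in Tcf1-/- at an unadjusted p under 0.05 and 0 were higher, against 3.4% and 3.38% of all genes. Means were lower for 9 and higher for 6, and the median was -0.13. Lef1, a paralogue of Tcf1, was at 7.69, 7.51 and 7.75 in Tcf1-/- and 8.64, 8.41 and 8.63 in Tcf1-/+, a difference of -0.91 (SE 0.19) without overlap, where 4.94% of all genes were separated in that direction. The chromatin organizer gene Satb1 differed by -0.73 (SE 0.23) and Foxp1 by -0.71 (SE 0.27), and both were also without overlap. The other 4 probe sets of Satb1 all had lower Tcf1-/- means, whereas those of Foxp1 lay between -1.54 and 0.38. The fourth was Bcl11a at -0.52 (SE 0.21), named after its value was seen. Differences larger in size went the other way with overlapping arrays on the brightest probe sets, in genes also named after their values were seen. They were 1.51 (SE 0.63) for Tcf3, 1.24 (SE 0.57) for Ikzf3 and 1.02 (SE 0.52) for Ets1. The other probe sets were at 0.50 and 0.10 for Tcf3, 1.29 and 0.12 for Ikzf3, and 0.95, 1.13 and 1.26 for Ets1. Those of Ets1 at 0.95 and 1.13 were higher on every Tcf1-/- array, which held for 6.51% of all probe sets. Both means behind the 0.12 of Ikzf3 were under background. Of 7 further factors listed as repressors or other regulators, 6 were measured, 5 had lower means and 0 had an unadjusted p under 0.05. The median was -0.55, and Zfp608, a repressor of the Rag genes in the mouse, differed by -0.66 (SE 0.40), Gfi1b by -1.26 (SE 0.81) and Etv6 by -0.44 (SE 0.31).

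**Figure D4:**
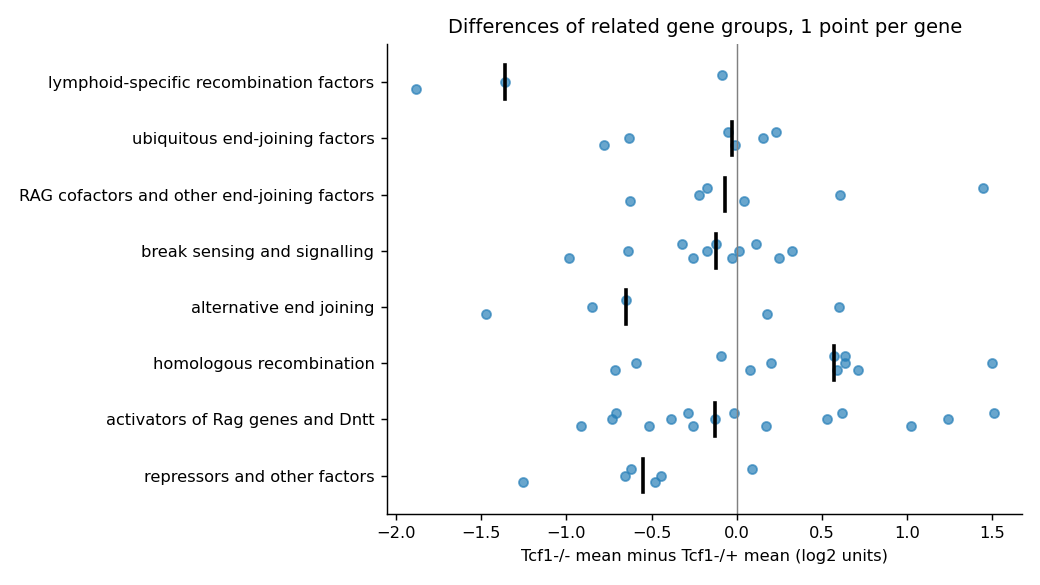
Tcf1-/- mean minus Tcf1-/+ mean (log2 units, horizontal axis) of each measured gene in 8 gene groups, with a black bar at the group's median. The lymphoid-specific group has its median at -1.36 with Rag2 apart near 0, and the ubiquitous factors lie between -0.78 and 0.23.

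The genes whose values ran most like those of Rag1 were sought among 12712 genes with a mean above background, by the root mean square distance over the 6 arrays after centring. For Rag1 they were Cgas (0.22 log2 units), Itfg2 (0.32) and Gm16740 (0.34), with differences between genotypes of -2.07, -1.34 and -1.45. The interval of Itfg2 was -3.14 to 0.46. For Dntt they were Npc1 (0.17), Tfap4 (0.20) and Dock1 (0.20), which differed by -1.29, -1.14 and -1.11. Differences like those of Rag1 and Dntt follow from a search for like values. With 6 arrays and so many genes, small distances of this kind describe the arrays only.

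The sorted cells were described by marker lists, whose level on an array is the mean log2 value of the measured genes. Counts at an unadjusted p under 0.05 compare with 3.38% of all genes higher and 3.4% lower in Tcf1-/-. All 6 genes of the gate list had means above background. Kit, which was selected for, was at 9.99, 7.45 and 9.60 on the Tcf1-/- arrays, against 10.80, 10.50 and 9.83 on the Tcf1-/+ arrays, and was lowest on Tcf1-/- replicate 2. The gate list separated the genotypes on 3 of its genes, with Thy1 at 2.48 (SE 0.52), Flt3 at -1.53 (SE 0.42) and Cd34 at -1.24 (SE 0.36), all without an adjusted p under 0.05 from limma. CD25, against which the sort selected, is encoded by Il2ra, whose brighter probe set was above background throughout, at 9.32, 10.97 and 10.53 in Tcf1-/- and 9.22, 9.38 and 10.17 in Tcf1-/+. The difference of Il2ra was 0.69 there and -1.29 on its other probe set, and the arrays overlapped on both. Tcf1-/- replicates 1 and 2 were under background on the dimmer one. Of 13 NK and innate lymphoid genes 10 averaged higher in Tcf1-/-, 7 of them at that p and 1 lower (Klrd1 at -1.49), with levels of 8.07 to 8.85 in Tcf1-/- and 6.56 to 7.17 in Tcf1-/+, and the means of Ncr1 and Tbx21 were under background in both genotypes. Genes of T-lineage cells past the early progenitor stage had lower means for 6 of 11, 3 lower and 1 higher at that p, with levels of 6.85 to 7.02 in Tcf1-/- and 7.02 to 7.74 in Tcf1-/+, and Ptcra and Cd8b1 were under background in both. Proliferation genes had lower means for 11 of 11, 2 at that p, with overlapping levels of 8.89 to 10.24 in Tcf1-/- and 9.72 to 10.43 in Tcf1-/+. Levels also overlapped for the early lymphoid genes (lower means for 7 of 13, 1 lower and 1 higher at that p, with Ptcra and Blnk under background), the dendritic genes (lower for 5 of 8, 3 at that p), the myeloid genes (higher for 7 of 10, 1 at that p, with Itgam under background) and the erythroid genes (higher for 5 of 6, 0 at that p, with Hba-a1 under background). B-lineage markers other than Rag1 and Dntt had higher means for 5 of 7, 1 higher and 1 lower at that p, with Ebf1 and Ms4a1 under background. Those 2 were Blk at 2.44 and Pou2af1 at -1.84, named after their values were seen, and the Tcf1-/- mean of Pou2af1 was under background. The B-lineage levels were 5.72 to 5.77 in Tcf1-/- and 5.37 to 5.72 in Tcf1-/+. They barely missed overlap, at 5.725 for the lowest Tcf1-/- array and 5.716 for the highest Tcf1-/+ array. Counts read each gene on its brightest probe set. In the early lymphoid list, Ccr9 differed by -0.49 on that probe set and by -3.01, -1.48, -2.42 and -0.22 on the others. Those at -3.01 and -1.48 were lower on every Tcf1-/- array, with Tcf1-/- means under background. The other probe sets of Mef2c lay between -1.18 and -0.66. Il7r went the other way, at 2.00 and 3.14, higher on every Tcf1-/- array on both. Over all probe sets, 5.27% were separated lower and 6.51% higher. Ccr9, Mef2c and Il7r were picked from their list. These genes are named after their values were seen. The part of any of the marker lists in the values of Dntt and Rag1 was not tested.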

How the data were processed

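RNA from sorted progenitors was amplified with the Ovation Pico WTA System, labelled and hybridized, per the labels' protocols, which give an average of 3 ng of total RNA from 1000 cells. The authors deposited log2 values, one per probe set and array. How the authors summarized and normalized them: not given in the sources used here. That the scale is log2 was inferred from a range of 2.15 to 14.8, with array medians of 5.80 to 5.87. Values were used as deposited.

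After 64 control probe sets were left out, 45037 were tested. The platform annotation gave 1 symbol to 34945 of them, several to 932 and none here to 9160. Symbols were updated by gene identifier through the RefSeq table of GRCm38.p6, which matched 34754. The brightest probe set by mean of 6 arrays stood for a gene.

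The fit was made in R 4.3.3 with limma 3.58.1 (lmFit, eBayes, two-sided, genotype as the only term) over all probe sets, with Benjamini-Hochberg adjusted p-values and a threshold of 0.05. Differences are Tcf1-/- minus Tcf1-/+, and SEs and 95% intervals of differences are limma's. The fit was tested on simulated data. The number of arrays limits the precision, and p-values measure the spread between these arrays.

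The genes and lists were chosen with earlier results of these data known. By rule the text names all members and, of other lists, genes past the adjusted threshold or, where none is, up to 3 of smallest unadjusted p. Marker lists are given as counts and levels, without Rag1 and Dntt, and the genes of the gate list are named. Of these, Kit, Cd44 and Il2ra encode markers that the sort used. The Y-linked list is given per array. Replicate numbers were not treated as pairs, since nothing in the labels ties a number to a litter or day. Deviations of same-numbered arrays from their group means correlated by 0.030, 0.045 and 0.012. Those of other-numbered arrays correlated by -0.090 to 0.061. These correlations cannot exclude a shared litter or day. Alternatives were the replicate block, quantile normalization, median centring, a filter on mean level, a floor at background, array weights, the Y-linked level as covariate, the mean of a gene's probe sets, an unmoderated pooled-variance test and leaving out each array.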

Additional observations from a re-analysis of the deposited data

How the results depend on the processing

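Over all alternatives, 0 probe sets passed the adjusted threshold, of the 14 or of all 45037, with limma and with a pooled-variance test without moderation. At an unadjusted p under 0.05 limma had 2917 of all probe sets and the pooled-variance test 2565, and of the 14 they had 5 and 3. Dntt and Rag1 kept lower Tcf1-/- means under all 14 alternatives run for each, but several of these could not turn the sign. The replicate block and the filter on mean level leave the difference itself unchanged. For Dntt every Tcf1-/- array lay below every Tcf1-/+ array, so leaving out an array could not turn it either. The difference of Dntt lay between -1.62 and -1.05 when an array was left out and between -1.77 and -1.30 otherwise, and its adjusted p lay between 0.248 and 0.813. For Rag1 the ranges were -2.59 to -1.44 and -1.90 to -1.11, with adjusted p between 0.353 and 1. Without Tcf1-/- replicate 3, the array that overlapped, Rag1 was at -2.59 with an adjusted p of 0.353. With the replicate block 5 of the 14 probe sets had an unadjusted p under 0.05 and 3074 of all. The block changed no call, and Dntt had an adjusted p of 0.638 with it.

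The sign turned for genes with differences near 0. Xrcc4 was at 0.0045 after quantile normalization, 0.099 with the Y-linked covariate and 0.23 over the mean of its probe sets. Lig4, whose means were under background, has no measured difference, and its values only show that the sign is not fixed. They were 0.24 with the floor, 0.22 with array weights and 0.50 with the Y-linked covariate, and the filter on mean level removed it. With 1 array left out, the differences ranged from -0.31 to 0.14 for Rag2, -1.44 to 0.12 for Prkdc, -0.37 to 0.32 for Xrcc4, -0.11 to 0.43 for Xrcc5, -0.89 to 0.53 for Lig4 and -0.11 to 0.66 for Nhej1. That of Xrcc6 lay between -0.91 and -0.30. Lymphoid-specific minus ubiquitous lay between -1.24 and -0.36 with 1 array left out and between -1.16 and -0.72 otherwise, where 1 alternative, not averaging Lig4, was chosen after seeing the data and gave -0.90. The cause of these changes was not tested.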
